A study of Rattus norvegicus with 6 samples.

Results

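Cells copy the pattern of methylated cytosines onto new DNA each time they pass through S phase. DNMT1 methylates the new strand, UHRF1 recognises the half-methylated CpG sites behind the replication fork and recruits DNMT1, and the helicase HELLS opens nucleosomes for it. DNMT3A and DNMT3B set new methylation, and the dioxygenases TET1, TET2 and TET3 oxidise methylcytosine as the first step of its removal. In pancreatic β-cells DNA methylation is known to take part in keeping genes of other islet cell types and of immature β-cells silent. The genes that write, maintain and erase this mark were therefore compared between β-cells that had replicated and β-cells that had not.

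The genes were chosen by name as *Dnmt1*, *Dnmt3a*, *Dnmt3b*, *Uhrf1*, *Uhrf2*, *Tet1*, *Tet2*, *Tet3* and *Hells*. All 9 were found on the array, out of 18957 genes with a symbol, and 13 probes measured them. Replicating (EdU-positive) and quiescent (EdU-negative) β-cells came from islets of young adult male Wistar rats, cultured overnight at basal glucose with EdU, a thymidine analogue built into newly made DNA. Dispersed cells of both groups were labelled with the zinc dye Newport Green, fixed, permeabilised and sorted by size, granularity and green fluorescence. Each of the 3 islet preparations pooled 4 rats and gave 1 replicating and 1 quiescent sample, so that there were 6 arrays. EdU stays in the DNA, so the replicating group held any cell that had copied DNA during the culture, whatever phase it had reached. In such sorted pools, fewer cells of a type and less RNA per cell cannot be told apart.

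Of the 11 β-cell markers on the array all were well above background on all 6 arrays, and *Ins2*, an insulin gene, had a normalized log2 value between 15.51 and 16.87. The arrays were uneven. Quiescent array 2 had a Pearson's r of 0.654 to 0.83 with the other quiescent arrays across probes, while the replicating arrays had 0.967 to 0.986 with each other. Quiescent array 3 was closer to the replicating arrays, with 0.943 to 0.969, than to quiescent arrays 1 and 2, with 0.867 and 0.654. Markers of other cells differed between the groups: 6 of 15 mesenchymal markers (40%, against 5.74% of all genes) were higher in replicating samples at the threshold used below. Their summed log2 level was 13.95 to 15.47 there against 12.75 to 12.88 in quiescent samples. Of the immune, acinar, duct and endothelial markers, 3 of 10, 1 of 8, 1 of 7 and 0 of 8 were higher and 0 lower. The medians of these lists were 0.5, 0.3, -0.33 and -0.12. *Gcg*, *Sst* and *Ppy*, the hormones of alpha, delta and PP cells, were higher by 2.39, 1.74 and 1.21 on the log2 scale. Of the 10 alpha, 4 delta and 1 PP markers on the array, 2, 2 and 1 passed, with medians of 0.23, 1.03 and 1.21. Those that did not pass included *Slc7a2*, an alpha cell marker, at -0.56 and *Ghsr*, a delta cell marker, at -0.93. The part of these markers in the values below was not tested.

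None of the 9 writers and erasers differed between replicating and quiescent β-cells at the study's threshold, an unadjusted p of at most 0.05 with a log2 ratio of at least 1 in either direction. Every log2 ratio sets the replicating sample over the quiescent one. Higher were 0 of 9 and lower 0 of 9, against 5.74% and 2.72% of all genes, and 4.44% and 4.18% of all probes. At rates of that size, 0 of 9 is near the background and is not a result about these genes as a group. The unadjusted p of the 9 genes lay at 0.0867 and above, and the adjusted p at 0.475 and above (limma, Benjamini-Hochberg over all 45598 probes, of which 0 passed an adjusted p of 0.05 and 4379 an unadjusted p under 0.05). The median log2 ratio of the 9 genes was -0.03, with 0.02, -0.04 and -0.12 in preparations 1, 2 and 3. Over all genes it was 0.00. For the 6 genes that were well above background on all 6 arrays, the median was 0.48.

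**Figure D1:**
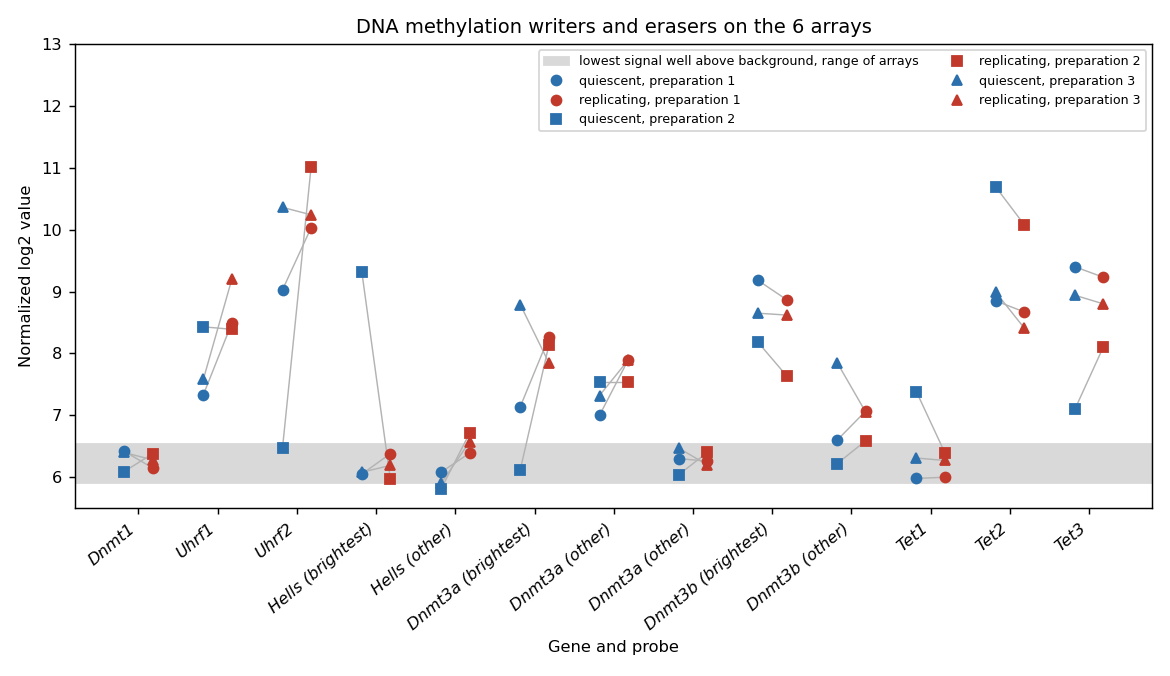
Normalized log2 value (y axis) of each of the 13 probes (x axis) on every array, with quiescent arrays in blue on the left, replicating arrays in red on the right, and a grey line joining the samples of 1 islet preparation. The grey band spans, over the arrays, the lowest signals well above background (5.91 to 6.53), and the points of *Dnmt1* lie inside it.

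Among the maintenance genes, *Uhrf1* had the smallest p. Its normalized log2 values were 8.49, 8.39 and 9.20 in replicating samples 1, 2 and 3, and 7.33, 8.43 and 7.58 in the quiescent samples of the same preparations. The groups overlapped by 1 array, because quiescent array 2 lay level with the replicating array of its preparation. The log2 ratio was 0.91 (standard error 0.43, 95% interval -0.19 to 2.01), or 1.88-fold, with 1.16, -0.04 and 1.62 in preparations 1, 2 and 3 (unadjusted p = 0.0867, adjusted p = 0.475 in limma). Among the ratios of 18558 genes with a value on every array, *Uhrf1* stood at percentile 90.6, 46.3 and 98.5 in the 3 preparations. Without preparation 2 its ratio was 1.39 and the unadjusted p 0.0103 (adjusted p = 0.674 in limma), so that the call depended on that preparation. The gene was measured by 1 probe, shown here because this value rests on it alone, which starts at base 2262 of its transcript and which the files place on an unassigned contig of the rat build rn4 from 25453160 to 25454463:
*Uhrf1* probe: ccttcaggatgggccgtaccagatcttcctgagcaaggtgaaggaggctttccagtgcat

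*Uhrf2*, the close relative of *Uhrf1*, had the largest ratio of the 9 genes and the largest spread. Its log2 values were 10.03, 11.01 and 10.24 in the replicating samples and 9.03, 6.48 and 10.36 in the quiescent samples. The low value of quiescent array 2 set the size of the ratio, and in preparation 3 the quiescent sample was the higher one. The ratio was 1.80 (standard error 0.92, 95% interval -0.55 to 4.15), with 1.00, 4.53 and -0.12 in the preparations (unadjusted p = 0.107, adjusted p = 0.477 in limma). It was 0.44 without preparation 2. When preparation 3 was left out it was 2.76, past the unadjusted threshold, with an adjusted p of 0.197 in limma. Its position in rn4 is chromosome 1, 233841002 to 233841061.

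*Dnmt1* lay at the limit of detection. Its single probe (chromosome 8, 19926995 to 19927054) was well above background on 0 of 3 replicating and 2 of 3 quiescent arrays. The log2 values of 6.15, 6.38 and 6.28 in replicating and 6.42, 6.09 and 6.40 in quiescent samples were all near the lowest signal that counts as well above background. That signal was 6.31, 6.53 and 6.25 on replicating arrays 1, 2 and 3, and 6.04, 5.91 and 6.31 on the quiescent arrays. The detection counts of the groups thus do not share a limit. A difference in *Dnmt1* was therefore not detectable with this probe, and no fold is given.

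The 2 probes of *Hells* had fitted ratios of opposite sign. The probe at base 2534 of the transcript (chromosome 1, 243261830 to 243261889) had log2 values of 6.38, 5.97 and 6.19 in the replicating samples and 6.05, 9.32 and 6.08 in the quiescent samples. Only quiescent array 2 was well above background there. The fitted ratio of -0.97 (adjusted p = 0.576 in limma) rested on that array and was 0.22 without preparation 2, so that no fold between the groups is given. The probe at base 643 (chromosome 1, 243246412 to 243246471) had 6.39, 6.71 and 6.57 in the replicating samples against 6.08, 5.81 and 5.90 in the quiescent samples. Here the groups did not overlap, as for 10.9% of all genes in this direction, and the ratio was above 0 in all 3 preparations. It was well above background on 2 replicating arrays and on no quiescent array. Set against the detection limit, the means of 6.56 and 5.93 give a fold of at least 1.37. That bound concerns detection alone and leaves out the spread between samples. The fitted ratio of 0.63 had a 95% interval of -0.19 to 1.44, which includes 0 (unadjusted p = 0.105, adjusted p = 0.477 in limma). The probes are printed because the direction of *Hells* differed between them:
*Hells* probe at base 2534: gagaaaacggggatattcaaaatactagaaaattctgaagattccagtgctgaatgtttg
*Hells* probe at base 643: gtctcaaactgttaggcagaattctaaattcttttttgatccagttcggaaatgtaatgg

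*Dnmt3a* was measured by 3 probes. The brightest (chromosome 6, 26878369 to 26878428) had log2 values of 8.26, 8.13 and 7.85 in replicating and 7.14, 6.12 and 8.79 in quiescent samples. The replicating samples lay within the range of the quiescent ones. The ratio was 0.73 (standard error 0.62, 95% interval -0.86 to 2.31), with 1.12, 2.01 and -0.94 in the preparations (unadjusted p = 0.294, adjusted p = 0.585 in limma). When preparation 3 was left out it was 1.56, past the unadjusted threshold, with an adjusted p of 0.175 in limma. Without preparation 2 it was 0.09. The probe of a predicted transcript (26883595 to 26883654) was steadier, with 7.89, 7.54 and 7.89 against 7, 7.54 and 7.32. Its ratio was 0.48 (95% interval -0.39 to 1.36, unadjusted p = 0.215). The third probe (26864404 to 26864464) had 6.26, 6.40 and 6.20 against 6.30, 6.04 and 6.47, and was well above background on 0 of 3 replicating arrays. With the median over its probes, *Dnmt3a* had a ratio of 0.94 (unadjusted p = 0.0366, adjusted p = 0.498 in limma), short of the log2 ratio of 1 that the threshold asks.

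*Dnmt3b* was measured by 2 probes. The brighter one (chromosome 3, 144060143 to 144060202) had 8.87, 7.64 and 8.62 in the replicating and 9.18, 8.18 and 8.65 in the quiescent samples. The values differed more between preparations than between groups, and the replicating sample was the lower one in all 3 preparations, as for 18% of all genes. The ratio was -0.30 (95% interval -1.10 to 0.51, unadjusted p = 0.389). The dimmer probe (144069022 to 144069081) had 7.07, 6.59 and 7.05 against 6.60, 6.22 and 7.85, with a ratio of 0.01 and with 0.47, 0.38 and -0.81 in the preparations.

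**Figure D2:**
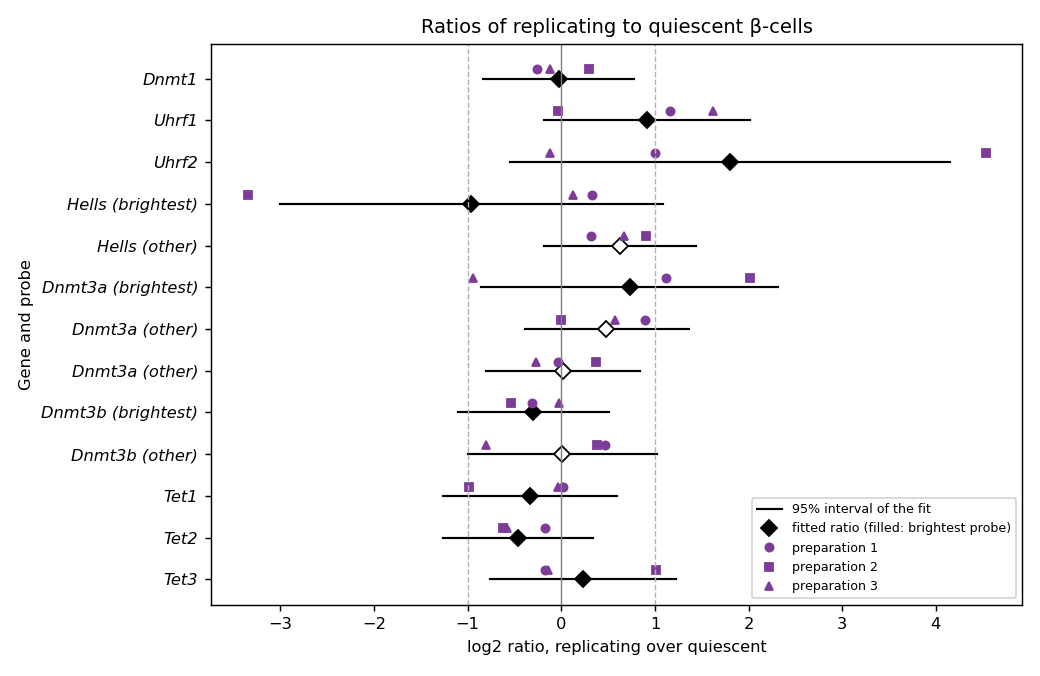
Log2 ratio of replicating over quiescent β-cells (x axis) for the 13 probes (y axis), with the fitted ratio as a diamond, its 95% interval as a line and the ratio in each preparation as a purple symbol; dashed lines mark a ratio of 1 in either direction. All 13 intervals include 0, and the widest belong to *Uhrf2* and to the brightest probe of *Hells*, where preparation 2 stood at 4.53 and -3.35; the ratios of *Dnmt1*, *Tet1* and *Hells* rest on signals near or below background.

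Of the erasers, *Tet2* and *Tet3* had signal on all arrays and *Tet1* did not. *Tet2* (chromosome 2, 231016042 to 231016101) had 8.67, 10.08 and 8.41 in the replicating and 8.85, 10.69 and 8.99 in the quiescent samples. It was lower in the replicating sample of every preparation, as for 18% of all genes. The groups overlapped, because both samples of preparation 2 lay above the others. The ratio was -0.46 (standard error 0.31, 95% interval -1.26 to 0.34), with -0.18, -0.62 and -0.58 in the preparations (unadjusted p = 0.202, adjusted p = 0.520 in limma). *Tet3* (chromosome 4, 117576972 to 117577031) had 9.23, 8.11 and 8.80 against 9.40, 7.10 and 8.94. Its ratio of 0.23 (95% interval -0.76 to 1.22) was above 0 in preparation 2 alone, at 1.01, and was -0.16 without it. *Tet1* (chromosome 20, 25124171 to 25124230) was well above background on 1 of 6 arrays, quiescent array 2. Its log2 values were 6.00, 6.39 and 6.27 against 5.98, 7.38 and 6.31. The ratio was -0.33 (adjusted p = 0.662 in limma) and -0.01 without preparation 2, so that no fold is given.

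The 9 genes shared the unevenness of the quiescent arrays with the rest of the transcriptome. The SD over the 3 quiescent samples exceeded that over the 3 replicating samples for 8 of 9, and for 86.8% of all genes. Quiescent array 2 held the lowest or the highest of the 6 values for 7 of 9, and for 70.8% of all genes. Leaving out 1 preparation at a time brought *Uhrf1*, *Uhrf2* or *Dnmt3a* past the unadjusted threshold, each higher in replicating cells, and none of the other 6 genes. Without preparation 3, where *Uhrf2* and *Dnmt3a* passed, 5112 of 45598 probes were called higher, against 2023 with all 3 preparations. Without preparation 2, where *Uhrf1* passed, 1447 were.

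**Figure D3:**
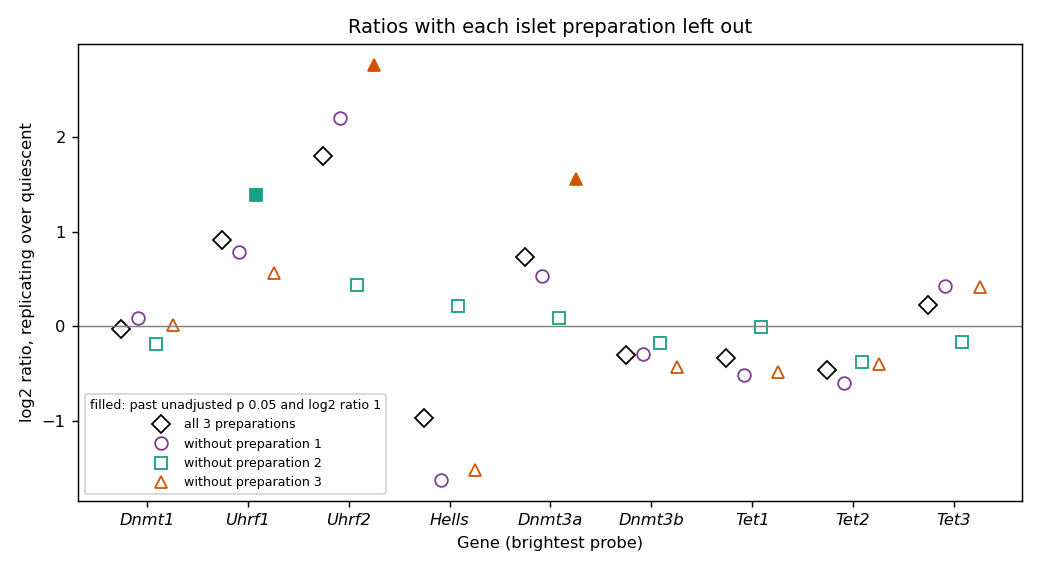
Fitted log2 ratio of replicating over quiescent β-cells (y axis) for the brightest probe of each gene (x axis), with all 3 preparations and with each left out; filled symbols are past an unadjusted p of 0.05 and a log2 ratio of 1. The filled symbols are *Uhrf1* without preparation 2 (1.39), and *Uhrf2* (2.76) and *Dnmt3a* (1.56) without preparation 3.

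Genes that work with the maintenance enzymes were listed next. Of 19 partner genes on the array, 8 were higher in replicating β-cells (42.1%, against 5.74% of all genes). Lower were 2, against 2.72% of all genes, and 9 did not pass. The median log2 ratio of the 19 was 0.71. *Pclaf*, a PCNA-binding factor whose ubiquitinated form recruits DNMT1, was higher by 3.39 (standard error 0.36; 3.07, 3.05 and 4.05 in the preparations; unadjusted p = 0.000207, adjusted p = 0.149 in limma). *Cdca7l*, the relative of the HELLS activator *Cdca7*, was higher by 2.35, and *Suv39h1*, a histone H3 lysine methyltransferase, by 2.17. *Pcna*, the sliding clamp to which DNMT1 binds at the fork, was higher by 1.68 (unadjusted p = 0.0111). *Cdca7* itself had a ratio of 0.21 (unadjusted p = 0.551). *Ehmt1* and *Ehmt2*, named after their values were seen, were higher by 1.11 and 1.04 with their brightest probes. Their other probes had 0.98 and -0.31 and did not pass. Lower were *Dppa3*, which hinders UHRF1, at -1.10, and *Zbtb24*, a regulator of *Cdca7*, at -1.01, but their other probes had ratios of -0.24 for *Dppa3* and between -0.53 and 0.31 for *Zbtb24*. Without preparation 1 the count was 3 higher and 0 lower. With Feature Extraction's processed signal it was 4 higher, and with 75th percentile scaling 5.

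Further lists covered reading, removing and fuelling the mark. Of 12 methyl-CpG readers, 0 passed in either direction, near the 5.74% and 2.72% of all genes, with a median ratio of 0.58. Without preparation 3 the count was 3 higher and 1 lower, and without preparation 2 the median was 0.20. *Mbd4*, a reader that is also a glycosylase, had 0.66 (unadjusted p = 0.118). Of 30 genes of demethylation and base excision, 4 were higher (13.3%, against 5.74% of all genes) and 1 lower. The count of higher genes was 1, 2 and 6 without preparation 1, 2 and 3, and 2 with the processed signal. The higher ones were *Gadd45a*, a stress gene tied to active demethylation, at 1.54, the glycosylase *Neil3* at 1.35, *Oga*, which removes O-GlcNAc, at 1.37, and the repair scaffold *Xrcc1*, named after its value was seen, at 1.54. *D2hgdh*, which clears the TET inhibitor D-2-hydroxyglutarate, was lower by a log2 ratio of -2.02, with -3.12, -2.61 and -0.32 in the preparations, and its other probe had -0.62 (unadjusted p = 0.139). *Tdg*, the glycosylase that excises oxidised methylcytosine, had 0.59 (unadjusted p = 0.310), and *Ogt*, a partner of the TET proteins, 0.15 (unadjusted p = 0.699).

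Of 26 genes of the methyl donor and folate cycle, 3 were higher (11.5%, against 5.74% of all genes) and 0 lower. The count of higher genes was 1 without preparation 1, 9 without preparation 3, and 1 with the processed signal or a variance trend. *Tyms*, which makes thymidylate for DNA synthesis, was higher by 1.91. *Mat2a*, which makes the methyl donor S-adenosylmethionine, was higher by 1.22 with its brightest probe and had 0.58 with its other one. *Mthfd1l*, a mitochondrial folate enzyme, was higher by 1.13. *Ahcy*, which clears the product S-adenosylhomocysteine, had 0.71 (unadjusted p = 0.101). For scale, 20 of 31 S phase replication genes and 20 of 24 G2 and M phase genes were higher on the same arrays, or 64.5% and 83.3%. Their medians were 1.68 and 2.88. Without preparation 1 the S phase count was 11. The smallest p belonged to *Mcm5*, *Cdc45* and *Mcm3*, which load or form the replicative helicase, at 3.62, 3.14 and 3.13, and to *Bub1*, *Nusap1* and *Tpx2*, which act on the mitotic spindle and its checkpoint, at 4.72, 3.86 and 3.97. In preparations 1, 2 and 3 the S phase median was 1.98, 1.90 and 1.26, where *Uhrf1* had 1.16, -0.04 and 1.62. Some genes stand in more than 1 list, among them *Pcna* and *Tyms*, which are also counted among the S phase genes. These lists are described by their counts and were not tested as sets.

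**Figure D4:**
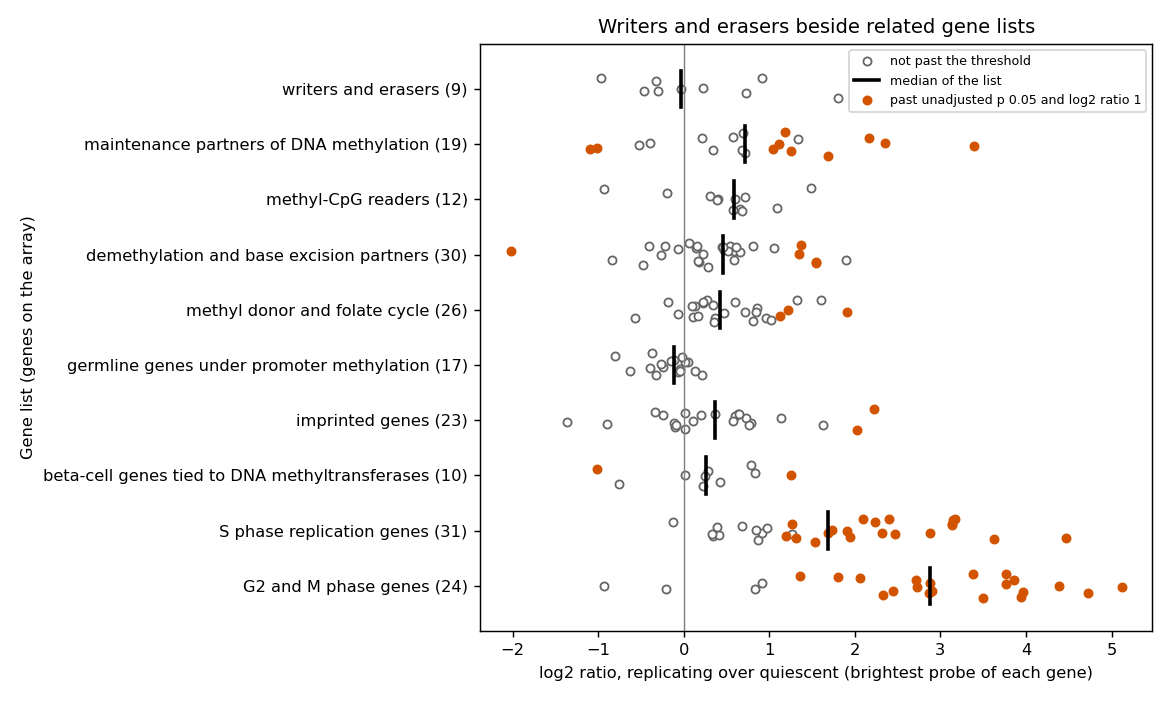
Log2 ratio of replicating over quiescent β-cells (x axis) for each gene, by its brightest probe, in the 9 writers and erasers and in 9 related lists (y axis, genes on the array in brackets); orange points are past an unadjusted p of 0.05 and a log2 ratio of 1 and black bars are medians. The writers and erasers hold no orange point. Their median of -0.03 is the ratio of *Dnmt1*, which lay at the limit of detection. Over the 6 genes well above background on all arrays the median is 0.48. The S phase and the G2 and M phase lists have medians of 1.68 and 2.88.

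The promoters were searched for motifs of cell-cycle genes in RefSeq sequences of the assembly GRCr8, from 250 bases before to 50 after each annotated start. Promoters were given for 8 of the 9 genes, 15 in all, and not for *Dnmt3b*. The E2F cores searched, on both strands as for every motif, were TTCCCGC, its variant with the letters TTGGCGC, and a further variant with the letters TTCGCGC. At least 1 core occurred in *Dnmt1*, *Uhrf1*, *Uhrf2* and *Hells*, or 4 of 8 genes, against 8.4% of all genes with a promoter. The cores contain CG, and this share was not matched for CG content or for the number of promoters per gene. In *Dnmt1* and *Uhrf2* the core lay after the start. The cell cycle homology region TTTGAA occurred in 0 of 8, against 19.4%. The CCAAT box (CCAAT) occurred in 4 of 8, against 39.6%, and the SP1 core GGGCGG in 7 of 8, against 36%. CG dinucleotides, the sites of methylation, numbered between 3 and 39 per member promoter, with a median of 7 over all promoters. Sequence before the start of *Hells* and of the *Uhrf1* start with most matches is shown, because each holds 2 E2F cores while neither gene was called. Capitals mark the E2F cores. The *Hells* stretch is chr1:246114069-246114128 and the *Uhrf1* stretch chr9:1222986-1223105, both on the plus strand:
*Hells*, 60 to 1 bases before the start: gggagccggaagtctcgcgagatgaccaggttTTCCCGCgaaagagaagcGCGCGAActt
*Uhrf1*, 200 to 81 bases before the start: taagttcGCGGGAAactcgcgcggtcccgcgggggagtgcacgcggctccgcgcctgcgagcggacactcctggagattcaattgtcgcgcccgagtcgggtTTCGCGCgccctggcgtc
A match is a description of these letters only, and binding was not measured.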

How the data were processed

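Gene expression in the sorted cells was measured on 6 Agilent rat arrays, 1 per sample, after whole transcriptome amplification and Cy3 labelling. The authors deposited intensity values of each spot from Feature Extraction 10.7.3.1, not normalized between arrays, and, for each spot, log2 values that had been background-corrected (normexp) and quantile-normalized. The deposited log2 values were used here. They differed by at most 0.00025 from normexp at an offset of 50 with quantile normalization of the deposited intensity values, which gives their scale and direction. Control spots were left out, spots marked as outliers (252 to 1583 per array) were set to missing, and spots of a probe were averaged, giving 45598 probes. Members were matched by the name in the array files. Genes of the other lists were named through RefSeq accessions (21109 probes by systematic name, 2631 by another accession) or otherwise by the array files. The probe with the highest mean over all 6 arrays stood for a gene. "Well above background" is Feature Extraction's mark, carried by 80.8% to 98.4% of probes per array; no spot was saturated. Probe positions are those of the files, on rn4.

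Each probe was tested with limma 3.58.1 in R 4.3.3, in a model that, like the study's own, holds a term for islet preparation. The pairing comes from the labels and methods; the 2 arrays of preparations 1, 2 and 3 deviated from the means of their groups with a correlation of 0.0561, 0.242 and 0.258 across probes. The number of arrays limits the precision. A gene not well above background on all arrays of a group has its ratio as "at least", against the higher of its own value and the lowest signal well above background of each array, or none. The members and lists were chosen with earlier results of these data known. Named are all members, Pcna, Cdca7, Tdg, Mbd4, Ogt, Mat2a and Ahcy, and in each other list up to 3 called genes per direction with the smallest p. Genes most like a called member were to be named, but no member was called. The fit was tested on simulated data. Alternatives were another normexp offset (16), Feature Extraction's processed signal or normexp values scaled to the 75th percentile, a filter on dim probes, a variance trend, outlier spots kept, the fit without the preparation block, a gene's median over its probes and each preparation left out; applying them to the lists was chosen after seeing the data.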

Additional observations from a re-analysis of the deposited data

How the results depend on the processing

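The 9 genes were compared under 11 alternatives, which gave 96 values: 86 had the same direction and side of the unadjusted threshold as reported, 4 passed it and 6 changed direction. With each preparation left out, *Dnmt1* ranged from -0.19 to 0.09, *Hells* from -1.62 to 0.22 (above 0 without preparation 2) and *Tet3* from -0.16 (without preparation 2) to 0.43. *Tet3* was also at -0.19 with normexp values scaled to the 75th percentile and -0.27 with the processed signal, where *Dnmt1*, *Tet1* and *Hells* stood at -2.07, -2.25 and -2.17 (unadjusted p = 0.0582, 0.0865 and 0.264 in limma). These 2 scalings moved the median of all probes from -0.07 to -0.39 and -0.71, and the median of the 9 genes from -0.03 to -0.28 and -0.64. With only probes well above background it was 0.48, over 6 genes, since *Dnmt1*, *Tet1* and *Hells* then had no value. The number of the 9 genes called higher was 1 (*Uhrf2*) with normexp values scaled to the 75th percentile and 0 to 2 with a preparation left out; 0 were called lower under any alternative. With a preparation left out the median of the 9 genes lay between -0.01 and 0.09. Over all probes, 2023 were called higher and 1905 lower; 662 and 3193 with the processed signal, 1596 and 5862 with 75th percentile scaling of normexp values, and 1879 and 878 without the preparation as a block. With a preparation left out, 518 to 5112 were called higher and 63 to 5633 lower, the lowest without preparation 1 and the highest without preparation 3. The block changed no call of the 9 genes (*Uhrf1* had an unadjusted p of 0.0593 without it). At an adjusted p of 0.05 in limma, 0 probes passed as reported, 719 with 75th percentile scaling of normexp values, 99 without the block, 61 with a variance trend, 84 without preparation 2, and 31 genes with the median over probes; none of the 9 genes was among them. The cause of these changes was not tested.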

Other observations

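Genes that DNA methylation is known to silence or mark were listed as well. Of 17 germline genes with methylated promoters in somatic tissue, 0 were called in either direction, near the 5.74% and 2.72% of all genes. Their log2 ratios lay between -0.80 and 0.21, with a median of -0.12. With the processed signal 2 were called lower and the median was -1.35. Of 23 imprinted genes, 2 were higher in replicating β-cells (8.7%, near the 5.74% of all genes). Without preparation 3 the count was 5 higher and 2 lower, and without preparation 2 the median turned from 0.36 to -0.02. *Nnat*, a proteolipid gene expressed in β-cells, was higher by 2.03 (1.55, 3.40 and 1.15 in the preparations), and its other probes had 2.12 and 1.05. *Phlda2*, a growth-restraining gene, was higher by 2.22 with its brightest probe, but its other probe had -0.95.

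Of 10 genes tied to DNA methyltransferases in β-cells, 1 was higher and 1 lower, against 5.74% and 2.72% of all genes. Both calls were lost without preparation 1 and under both 75th percentile scalings, and the lower one also without preparation 3, at an offset of 16 and with the median over probes. *Mafa*, a transcription factor of mature β-cells, was lower with -1.25, -0.50 and -1.27 in the preparations and a fitted ratio of -1.01 (unadjusted p = 0.0304, adjusted p = 0.475 in limma); its other probes had -0.94 and -0.48. *Slc16a1*, a lactate and pyruvate transporter, was the higher one at 1.25. *Hk1* and *Ldha* were named after their values were seen, because DNA methyltransferases are known to silence them in β-cells. *Hk1*, a hexokinase, had ratios of 1.32, -0.44 and 1.5 in the preparations, and *Ldha*, lactate dehydrogenase A, 0.63, -0.45 and 0.66; neither passed the threshold (unadjusted p = 0.164 and 0.490).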
